A study of Homo sapiens with 6 samples.

Results

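The translation initiation factor genes encode the proteins that bring a ribosome, the initiator tRNA and an mRNA together at the start codon. Members were taken as the protein-coding genes whose symbol is EIF followed by a digit, leaving out the EIF2AK kinases and the pseudogenes, which gave 52 of the 60671 annotated genes in the expression matrix. Of these, 48 reached at least 1 TPM (a length-corrected share of the transcripts in a library) in at least 3 of the 6 samples and were tested together with all 13861 genes that passed the same filter. The other members, EIF2S3B, EIF1AY, EIF5AL1 and EIF4E1B, did not pass, and EIF4E1B was at 0 in every sample.

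The samples were bulk RNA-seq libraries from tumors of MDA-MB-231, an established human triple-negative breast cancer line, each labelled as wild type in genotype. The cells were injected orthotopically, with Matrigel, into mammary fat pads (the fourth pair) of female NSG mice, an immunodeficient strain, at 6 to 8 weeks of age. The tumor core (TC, n = 3) was compared with the tumor margin (TM, n = 3); the samples of a zone come from different mice. No drug, knockdown or other perturbation was applied to these samples, so both zones carry the same line and the same host, and human cells are measured in a mouse that lacks functional lymphocytes. The comparison asks how gene expression differs between the core of a tumor, which the study regards as poorly supplied with nutrients, and its margin. In bulk samples, fewer cells of a type and less RNA per cell cannot be told apart.

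Initiation begins when eIF2, carrying GTP and the initiator tRNA, joins the small ribosomal subunit together with eIF1, eIF1A, eIF3 and eIF5. The eIF4F complex (the cap-binding protein eIF4E, the RNA helicase eIF4A and the scaffold eIF4G) recruits this assembly to the mRNA cap, after which it scans to the start codon, and eIF5B then joins the large subunit. The pathway is best known for being braked at a pair of steps, the recycling of eIF2 by eIF2B under stress and the capture of eIF4E by its binding proteins when mTORC1 is inactive, which many tumors bypass.

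Each library summed to 1000000 TPM except TM sample 3, which summed to 994381 TPM and had 4 loci above 0 outside the gene annotation, against 203 to 214 in the other 5 libraries. TPM keeps no read depth, so the depth behind each value is unknown. Markers of the line were present in every sample, with KRT8, KRT18, KRT19, VIM, CD44 and EGFR between 42.1 and 5283 TPM. EPCAM was lower, at 3.66 to 6.02 TPM, and the epithelial cadherin gene CDH1 stayed at or below 0.36 TPM. Skeletal muscle markers summed to 4.4 to 8.3 TPM over the TC samples and to 193, 528 and 3.1 TPM in TM samples 1, 2 and 3, and all 11 measured were lower in TC. Fibroblast markers summed to 65.8, 124 and 225 TPM in TC and to 477, 1005 and 91 TPM in TM, with 7 of 9 lower in TC. TM sample 3 therefore stood apart from the other TM samples, and the results below are given with and without it where it decides them.

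No initiation factor gene passed the test between TC and TM. At an adjusted p under 0.05 (limma on log2(TPM + 1), Benjamini-Hochberg over all tested genes) 0 of 48 members were called, against a background of 0.137% of all tested genes, and the smallest adjusted p of a member was 0.206. At an unadjusted p under 0.05 there were 5 members lower in TC (10.4%), where the background over all genes was 14.2%, and 0 higher in TC, where it was 1.93%. In 6 members, all of them lower in TC, the ranges of the zones were separate (12.5%, background 18.9%), and 0 members were separate in the higher direction (background 3.28%). As deposited, the members' shares thus lay below those over all genes. At an unadjusted p under 0.05 in limma, the lower direction did not keep this order in every setting. Quantile normalization gave 5 of 48 members, against 8.11% of all genes, and dropping the filter gave 5 of 52, against 4.53%. The standard error of a member's difference had a median of 0.18 and ran from 0.11 to 0.71 on the log2 scale, which limits what 3 samples a group can show.

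The family's median difference lay close to that of all genes. As deposited, 34 of 48 members (70.8%) and 67.0% of all tested genes were lower in TC, with median log2 differences of -0.10 and -0.14. After median-of-ratios rescaling, 13 of 48 members and 6087 of 13861 tested genes were lower, a smaller share for the members. Those medians were then 0.11 and 0.05. Relative to the median of all genes, the members' median stood at 0.04 as deposited, at 0.06 after that rescaling and at -0.06 after quantile normalization. Directions below are therefore those of the deposited TPM and are to be read against the -0.14 of all genes. Without TM sample 3 the members at an unadjusted p under 0.05 numbered 11 of 48, all lower in TC, a share above the background of 16.8%. The medians were -0.20 for members and -0.19 for all genes. The smallest adjusted p was then 0.094.

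**Figure D1:**
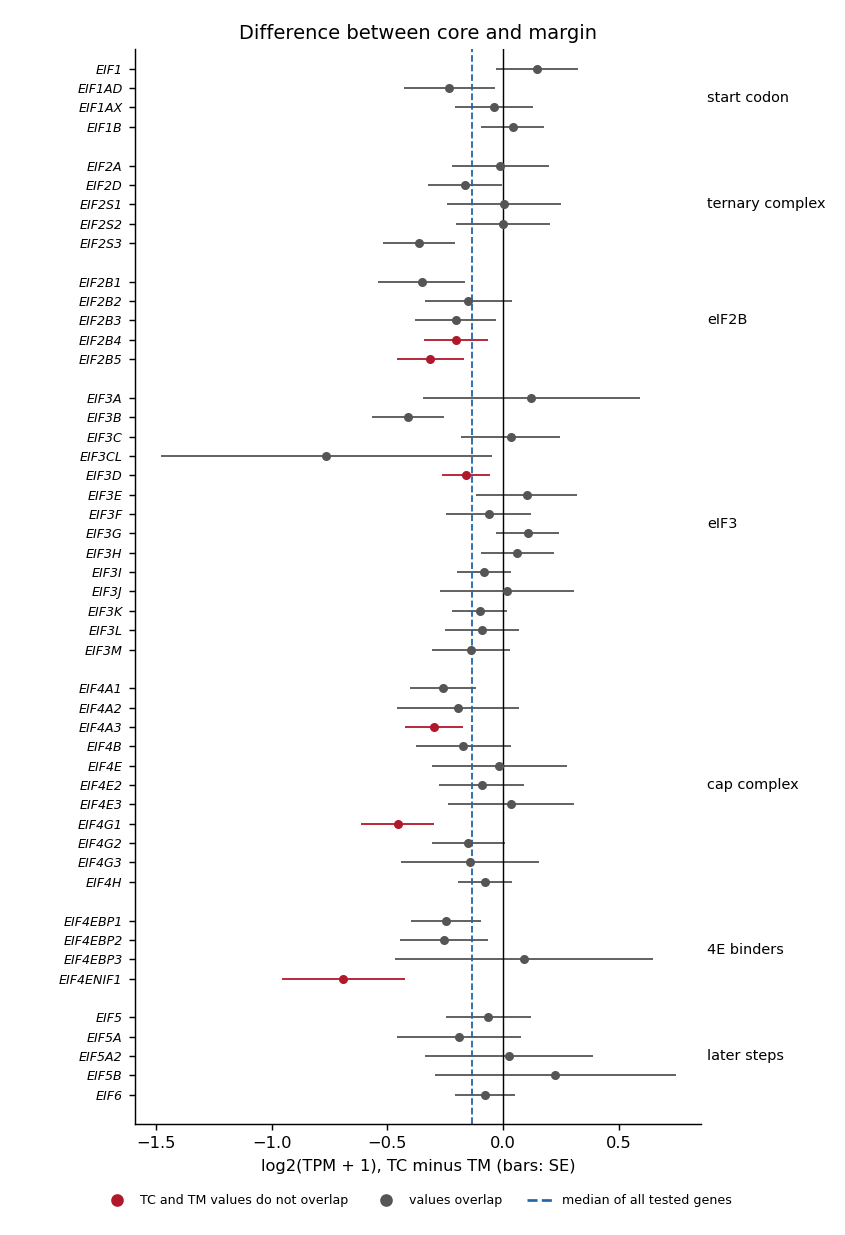
Difference in log2(TPM + 1) between TC and TM (x axis, TC minus TM) for the 48 tested initiation factor genes grouped by role (y axis), with bars for the standard error from limma. Red points mark the 6 genes whose 3 TC values all lie below their 3 TM values, and the dashed line marks the median of all tested genes, at -0.14; most points lie left of 0, on both sides of that line.

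The mRNAs of ribosomal proteins and of several translation factors begin with a C followed by a run of pyrimidines, the terminal oligopyrimidine (TOP) motif, through which mTORC1 and the RNA-binding protein LARP1 control their translation. The annotated start sites were therefore read for a C at the first transcribed base followed by at least 4 more bases that are C or T, on the transcribed strand only, taking the start with the longest run where a gene has several. Among the 44 members with an entry in the RefSeq promoter table (GRCh38.p14), 10 carried such a tract (22.7%), against 5.14% of all 27305 genes in the table and 74.6% of 63 cytosolic ribosomal protein genes. The windows below hold 10 bases before and 20 bases from the annotated start for the 9 carriers that were tested, with the tract in capitals. RPS6, a ribosomal protein gene, is shown as a typical carrier and EIF4A3 as a member without a tract.
EIF2S3, chrX:24054946-24054975, plus strand: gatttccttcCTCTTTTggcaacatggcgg
EIF2A, chr3:150546777-150546806, plus strand: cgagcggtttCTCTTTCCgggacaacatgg
EIF2D, chr1:206612446-206612475, minus strand: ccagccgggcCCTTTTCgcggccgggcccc
EIF3D, chr22:36529147-36529176, minus strand: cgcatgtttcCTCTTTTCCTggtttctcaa
EIF3F, chr11:7987327-7987356, plus strand: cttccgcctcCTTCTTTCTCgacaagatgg
EIF3K, chr19:38619178-38619207, plus strand: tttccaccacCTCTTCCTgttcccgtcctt
EIF3M, chr11:32583821-32583850, plus strand: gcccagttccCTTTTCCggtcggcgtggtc
EIF4A2, chr3:186783567-186783596, plus strand: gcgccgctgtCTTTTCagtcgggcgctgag
EIF4B, chr12:53006446-53006475, plus strand: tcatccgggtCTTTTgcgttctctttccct
RPS6, chr9:19380217-19380246, minus strand: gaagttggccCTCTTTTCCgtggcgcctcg
EIF4A3, chr17:80147109-80147138, minus strand: cggcagcggcacagcgaggtcggcagcggc
The tracts ran from 5 bases in EIF4B to 10 bases in EIF3D and EIF3F, and eIF3 supplied 4 of the 9 genes. The carrier not shown, EIF2S3B, was not tested.

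Relative to all genes, carriers among the members lay below the ribosomal protein genes that share the tract. The 9 carriers had a median difference of -0.16, with all 9 below 0 as deposited but 1 of 9 below 0 after median-of-ratios rescaling, while the 31 tested members with a start but no tract had a median of -0.09. That order turned over without TM sample 3, with medians of -0.14 for the carriers (6 of 9 lower) and -0.28 for the members without a tract (30 of 31 lower), and with the GC and length trend of each library removed the medians were -0.0349 and -0.0381. Of the 47 ribosomal protein carriers tested, 46 were higher in TC, with a median of 0.28, and all 47 after that rescaling. Of all 762 tested genes with a tract, 478 were lower in TC as deposited, with a median of -0.09. The 9405 tested genes with a start but no tract had a median of -0.14. Relative to the median of all genes, the members with a tract stood at -0.02 and the ribosomal protein carriers at 0.41, or at 0.05 and 0.53 without TM sample 3. EIF3E, EIF3F, EIF3H and EIF4B, members known to carry the motif, were split as deposited, with 2 lower and 2 higher in TC and differences from -0.17 to 0.10, while 0 were lower after median-of-ratios rescaling. The 2 that were higher as deposited, EIF3E and EIF3H, had no entry in the promoter table. They could therefore not be counted among the 9 carriers, all of which were below 0. A tract found in these letters describes the annotated start and does not show which start these tumors used.

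**Figure D2:**
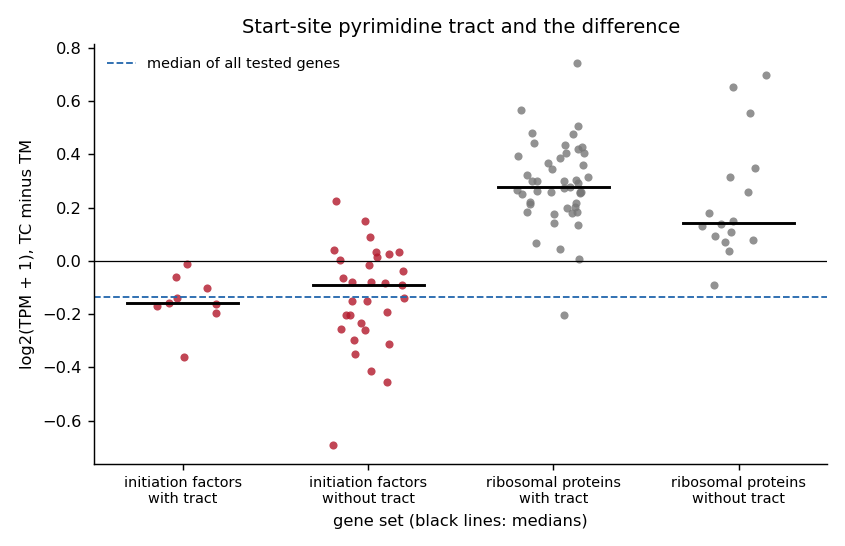
Difference in log2(TPM + 1), TC minus TM (y axis), for tested initiation factor genes and cytosolic ribosomal protein genes. Only genes with a promoter table entry are shown, split by whether an annotated start carries the pyrimidine tract (x axis). Black lines are medians, and the dashed line is the median of all tested genes; the 9 initiation factor carriers lie between -0.36 and -0.01, below nearly all ribosomal protein genes.

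Levels across the family spanned from 1.33 TPM for EIF4E3 to 1210 TPM for EIF4A1, as means over the 6 samples, and 24 of the 48 tested members averaged at least 100 TPM. EIF4A1, EIF5A and EIF1 made up 32.2% of the members' summed mean TPM, and with EIF3C and EIF4A2 the share was 40.3%. EIF5A and EIF1, at 974 and 969 TPM, did not differ beyond their spread, and neither did EIF3C and EIF4A2, at 407 and 390 TPM.

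**Figure D3:**
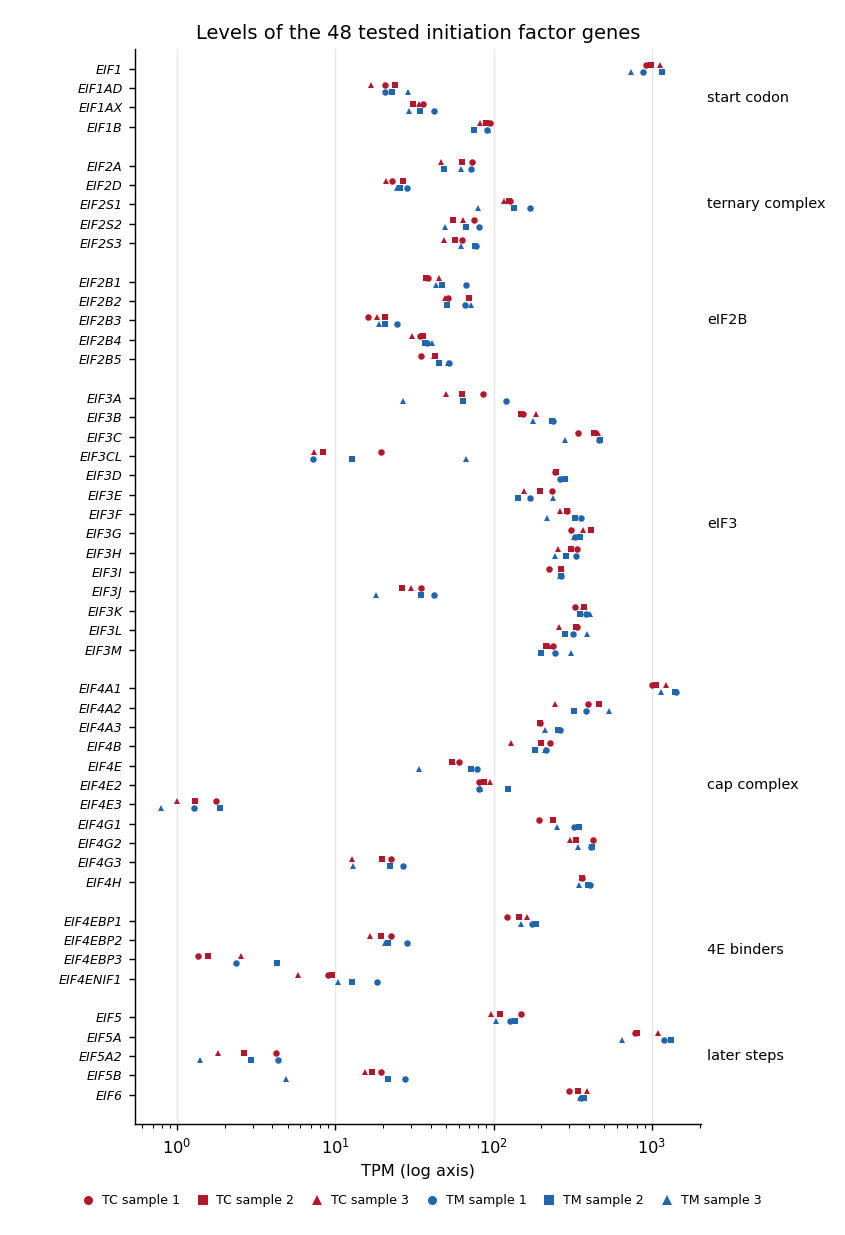
TPM of the 48 tested initiation factor genes in each of the 6 samples (x axis, logarithmic), grouped by role (y axis), with TC in red, TM in blue and the symbol giving the sample number. The value of 0 for EIF4EBP3 in TM sample 3 is not drawn; EIF1, EIF4A1 and EIF5A are the highest in the family, and within most genes the points of the 2 zones interleave.

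Among the factors of scanning and start codon choice, EIF1, which keeps the scanning ribosome from accepting wrong start codons, was the most abundant. EIF1 stood at 920.1, 992 and 1125 TPM in TC samples 1 to 3 and at 882, 1154 and 741 TPM in TM samples 1 to 3, a difference of 0.15 ± 0.18 (log2, SE, limma adjusted p = 0.748). The TM range enclosed all TC values. EIF1AX, the X-linked gene for eIF1A, which works with eIF1 on the small subunit, stood at 36.0, 31.1 and 34.0 TPM in TC and 41.7, 34.1 and 29.02 TPM in TM, with a difference of -0.04 ± 0.17. Its groups overlapped as well. EIF1B, a close relative of EIF1, and EIF1AD, an eIF1A-domain gene, differed by 0.04 and -0.23, and the Y-linked EIF1AY did not pass the filter.

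None of the 3 subunits of eIF2, the carrier of the initiator tRNA, passed the test. EIF2S1 encodes the alpha subunit, whose phosphorylation halts initiation under stress, and stood at 127, 125 and 116 TPM in TC and 169.6, 134 and 80.2 TPM in TM. The TC samples lay within 10.7 TPM of each other while the TM samples fell on both sides of them, and the difference was 0.00 ± 0.25, or -0.30 without TM sample 3. EIF2S3, the GTP-binding gamma subunit (chrX:24054716-24077971), stood at 63.4, 56.8 and 48.3 TPM in TC and 77.9, 76.6 and 62.6 TPM in TM, a difference of -0.36 ± 0.16 (limma unadjusted p = 0.0466, adjusted p = 0.301). TM sample 3 lay just below the highest TC sample, so the groups overlapped, and the difference without it was -0.46. EIF2S3 shares near-identical sequence with EIF2S3B, listed at 0.12 to 2.87 TPM. How reads were split between these copies is not known, so the values of EIF2S3 are uncertain. EIF2S2, the beta subunit, differed by 0.00, and EIF2A and EIF2D, which can deliver initiator tRNA without eIF2, differed by -0.01 and -0.16.

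All 5 subunits of eIF2B, the exchange factor that reloads eIF2 with GTP, had lower means in TC in the deposited TPM, with 3 of 5 still lower after median-of-ratios rescaling. Their differences ran from -0.15 to -0.35 with a median of -0.21, and 0 of 5 passed at an unadjusted p under 0.05. EIF2B5, the catalytic epsilon subunit, stood at 34.8, 42.9 and 41.8 TPM in TC and 52.3, 45.1 and 51.7 TPM in TM. Every TC value lay below every TM value, with 2.18 TPM between the nearest, and the difference was -0.31 ± 0.15 (limma unadjusted p = 0.0618, adjusted p = 0.342). EIF2B4, the delta subunit, also did not overlap, at 30.3 to 35.6 TPM in TC and 36.8 to 40.9 TPM in TM. Over the 5 genes the TPM added up to 175, 206 and 185 for TC samples 1 to 3 and to 247, 201 and 227 for TM samples 1 to 3, and these sums overlapped.

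The 14 genes of eIF3, the large scaffold that holds the small subunit and its factors together, were divided, with 8 lower and 6 higher in TC and a median difference of -0.07, and after median-of-ratios rescaling 2 were lower and 12 higher. EIF3B, a core scaffold subunit (chr7:2354086-2380745), stood at 153, 148 and 184 TPM in TC and 238, 233 and 178 TPM in TM, a difference of -0.41 ± 0.16 (limma unadjusted p = 0.0293, adjusted p = 0.250). TM samples 1 and 2 exceeded all TC samples, whereas TM sample 3 lay below TC sample 3. EIF3D, a subunit that can itself bind the cap of some mRNAs, stood at 244, 246 and 246 TPM in TC and 262, 283 and 277 TPM in TM. These groups did not overlap, and the TC values agreed to within 2.36 TPM, but the difference was small, at -0.16 ± 0.11 (limma adjusted p = 0.526).

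Other eIF3 subunits varied more between samples of a zone than between zones. EIF3A, the largest subunit, stood at 85.1, 63.1 and 50.4 TPM in TC and 120.5, 64.3 and 26.7 TPM in TM, and TM sample 3 was the lowest of the 6. The difference of 0.12 ± 0.47 became -0.44 without that sample. EIF3E, a subunit of the peripheral module, stood at 233, 195 and 155 TPM in TC and 169, 142 and 237 TPM in TM, so both its highest and its lowest value were in TM. EIF3C, a core subunit, stood at 342, 428 and 454 TPM in TC and 463.5, 472 and 284 TPM in TM, a difference of 0.03 ± 0.21. Its near-identical copy EIF3CL was at 19.3, 8.34 and 7.29 TPM in TC and 7.25, 12.7 and 67.0 TPM in TM, and reads cannot be assigned between the copies with certainty. Both copies together gave 362, 436 and 461 TPM for TC and 471, 485 and 351 TPM for TM, with overlap.

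Levels of the eIF3 subunits were compared within each sample as a fraction of the median subunit, leaving out EIF3CL. EIF3J, a loosely bound subunit, and EIF3A were the lowest, at 0.12 and 0.26 of the median subunit as means over the 6 samples. EIF3C was the highest, at 1.55. The other 10 lay between 0.72 for EIF3B and 1.41 for EIF3K. EIF3A ran from 0.10 in TM sample 3 to 0.46 in TM sample 1, EIF3D from 0.93 to 1.05 and EIF3C from 1.07 to 1.79.

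In the cap complex and its helpers, 10 of 11 tested genes were lower in TC as deposited, with a median difference of -0.15 that was nearly that of all genes, and 3 of 11 were lower after median-of-ratios rescaling. EIF4G1, the scaffold that joins the cap-binding protein, the helicase and eIF3 (chr3:184314495-184335358), stood at 194, 237 and 237 TPM in TC and 322, 348 and 251 TPM in TM. All TC samples lay below all TM samples, at means of 223 ± 24.7 and 307 ± 49.999 TPM (SD, n = 3 each). The difference of -0.45 ± 0.16 had the smallest p of the family (limma unadjusted p = 0.0193, adjusted p = 0.206). It ran from -0.36 to -0.59 when each sample was left out in turn, but was -0.24 after median-of-ratios rescaling and -0.0868 with the GC and length trend of each library removed.

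EIF4A3, a helicase of the eIF4A family that works in the exon junction complex rather than in initiation (chr17:80135214-80147183), stood at 197, 195 and 196 TPM in TC and 262, 254 and 211 TPM in TM. The TC samples were within 2.14 TPM of each other and below every TM sample, with a difference of -0.30 ± 0.12 (limma unadjusted p = 0.0418, adjusted p = 0.288). The main initiation helicase EIF4A1 stood at 1002, 1069 and 1232 TPM in TC and 1412, 1396 and 1148 TPM in TM, a difference of -0.26 ± 0.14 (limma unadjusted p = 0.102). TM sample 3 fell below TC sample 3. The read-through gene SENP3-EIF4A1, which shares exons with EIF4A1, was at 13.8 to 18.1 TPM. The second initiation helicase, EIF4A2, went the other way between samples, at 393, 460.4 and 244 TPM in TC and 383, 323 and 534 TPM in TM, with a difference of -0.19 ± 0.26. It was lowest in TC sample 3, where EIF4A1 was highest of its zone, and highest in TM sample 3, where EIF4A1 was lowest of its zone.

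EIF4E, the cap-binding protein itself, stood at 60.4, 54.6 and 55.5 TPM in TC and 78.0, 72.3 and 33.5 TPM in TM. TM samples 1 and 2 lay above the TC samples and TM sample 3 below them, so the difference was -0.02 ± 0.29 with TM sample 3 and -0.40 without it. EIF4B, which stimulates the helicase, stood at 227, 199 and 129 TPM in TC and 214, 184 and 212 TPM in TM, with TC sample 3 apart from the rest and a difference of -0.17 ± 0.21. The paralogs EIF4E2, EIF4E3, EIF4G2 and EIF4G3 and the helper EIF4H differed by -0.09, 0.03, -0.15, -0.14 and -0.08.

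Of the proteins that hold eIF4E, 3 of 4 were lower in TC, as deposited and after median-of-ratios rescaling. EIF4ENIF1, the transporter that carries eIF4E into the nucleus and to processing bodies (chr22:31436977-31496108), stood at 8.92, 9.49 and 5.83 TPM in TC and 18.3, 12.7 and 10.3 TPM in TM. The groups did not overlap, with 0.83 TPM between the nearest values, and the difference of -0.69 ± 0.27 was the largest of those at an unadjusted p under 0.05 (limma unadjusted p = 0.0318, adjusted p = 0.258). EIF4EBP1, the mTORC1-controlled repressor of eIF4E, stood at 122, 145 and 163 TPM in TC and 175, 185 and 149 TPM in TM, a difference of -0.25 ± 0.15 with overlap through TM sample 3. EIF4EBP2 differed by -0.26. EIF4EBP3 ran from 0 to 4.30 TPM and shares exons with the read-through gene ANKHD1-EIF4EBP3, at 9.16 to 18.1 TPM.

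Among the genes of subunit joining and later steps 0 of 5 passed at an unadjusted p under 0.05, and 3 were lower in TC, with a median of -0.06. Without TM sample 3 all 5 were lower, with a median of -0.29, and EIF5A and EIF5B passed at that unadjusted level. EIF5, which makes eIF2 hydrolyse its GTP at the start codon, stood at 148, 109.6 and 96.05 TPM in TC and 126, 136 and 104 TPM in TM. EIF5B, the factor that joins the large subunit, stood at 19.4, 16.9 and 15.4 TPM in TC and 27.6, 21.4 and 4.87 TPM in TM. TM samples 1 and 2 exceeded all TC samples and TM sample 3 lay well below them, so that the difference was 0.22 ± 0.52 with TM sample 3 and -0.48 without it.

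EIF5A, the hypusine-carrying factor that helps stalled ribosomes to form peptide bonds, stood at 785, 808 and 1086 TPM in TC and 1192, 1324 and 649.8 TPM in TM. TM sample 3 was again the lowest of the 6, and the difference of -0.19 ± 0.27 was -0.51 without TM sample 3 and 0.0051 without TM sample 2. Its near-identical relative EIF5AL1 was listed at no more than 0.45 TPM, but how reads were split between these copies is not known. EIF5A2, the second hypusine-carrying isoform, was low, at 4.24, 2.64 and 1.82 TPM in TC and 4.37, 2.95 and 1.40 TPM in TM. EIF6, which keeps free large subunits from joining too early, stood at 298, 344 and 387 TPM in TC and 359, 370.2 and 352 TPM in TM, a difference of -0.08 ± 0.13.

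Ratios of related members within a sample do not depend on how the sample was scaled. None of the 10 ratios compared separated TC from TM. The smallest p was 0.2, for EIF4G2 (a shorter eIF4G that does not bind eIF4E) over EIF4G1, and every Benjamini-Hochberg adjusted p over the 10 ratios was 1 (two-sided exact permutation test over samples, in which 3 against 3 cannot go below 0.1). EIF4G2 over EIF4G1 gave 2.17, 1.40 and 1.29 for TC and 1.27, 1.21 and 1.35 for TM. TC sample 1 stood apart and TM sample 3 lay between the other TC samples. EIF4A2 over EIF4A1 gave 0.39, 0.43 and 0.20 for TC and 0.27, 0.23 and 0.47 for TM, and each zone held values near both ends. EIF4EBP1 over EIF4E, the repressor against its target, gave 2.02, 2.65 and 2.94 for TC and 2.25, 2.55 and 4.43 for TM.

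TM sample 3 was the lowest of its zone in 33 of 48 members. On the log2 scale, its median deviation from the mean of the other TM samples was -0.29 over the members. Over all 13861 tested genes it was -0.10. TM sample 3 lay more than 1 away from that mean in 6 of 48 members and in 1115 of the 13861 genes. The SD over samples was larger in TM than in TC for 32 of 48 members. The shares over all genes for the counts of 33 and 32 were not computed, so these counts show nothing particular to the members. The relation of the members' deviations to base composition differed between libraries. Across the 48 members the Spearman correlation of the deviation with the GC content of the transcripts was -0.62, 0.16 and 0.47 in TC samples 1 to 3 and -0.34, 0.14 and 0.12 in TM samples 1 to 3, and that of the TC minus TM difference was -0.39, against -0.34 over 11803 tested genes with a protein-coding transcript. Over those 11803 genes the deviations correlated with GC content at -0.49, 0.23 and 0.30 in TC samples 1 to 3. In TM samples 1 to 3 they did so at -0.34, 0.07 and 0.21. These are correlations across genes of the same libraries, and genes are not independent replicates. With the trend of each library over GC content and transcript length removed, 26 of 48 members were lower in TC and 1 was lower at an unadjusted p under 0.05, EIF2S3. The part of base composition in the differences between zones was not tested further.

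**Figure D4:**
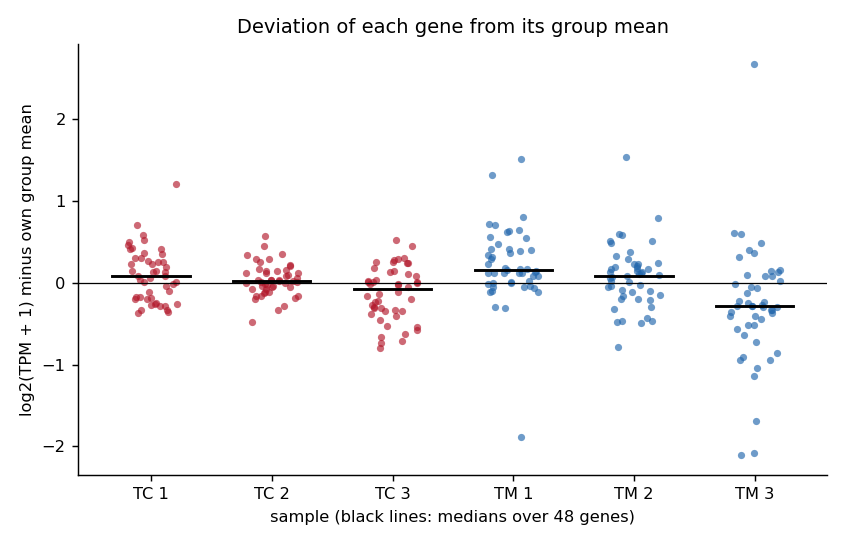
Deviation of log2(TPM + 1) in a sample from the mean of the other samples of its zone (y axis) for the 48 tested initiation factor genes. The group mean named on the axis is this mean, which leaves out the sample itself. The x axis gives the 6 samples, and black lines are the medians. The median of TM sample 3 lies at -0.29 and its points spread furthest, with EIF3CL above 2 and EIF5B and EIF4EBP3 below -2.

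The initiation factors were set against the ribosomal proteins, the other large class of translation genes. The members summed to 9152, 9447 and 9513 TPM in TC and 10771, 10772 and 9102 TPM in TM, or 0.94% ± 0.02 and 1.02% ± 0.10 of all TPM (SD, n = 3 each), and the groups overlapped because TM sample 3 was the lowest of all. The 79 cytosolic ribosomal protein genes summed to 24.7%, 27.1% and 26.4% of 1000000 TPM in TC and 20.7%, 19.99% and 24.1% in TM, and 77 of 79 were higher in TC, with a median difference of 0.26. After median-of-ratios rescaling all 79 were higher, and after quantile normalization 60 were. The initiation factor sum amounted to 3.71%, 3.49% and 3.597% of the ribosomal protein sum for TC samples 1 to 3 and to 5.21%, 5.39% and 3.78% for TM samples 1 to 3. Every TM value lay above every TC value, although TM sample 3 exceeded TC sample 1 by little. The ribosomal protein sum separated the zones by itself while the initiation factor sum did not, and the median of all genes (-0.14) stood below the ribosomal protein median as well, so the contrast is not particular to initiation factors. Since both sums come from the same library, this percentage does not depend on the scaling. None of the ribosomal protein genes passed at an adjusted p under 0.05 in limma, with 22 of 79 higher and 0 lower in TC at an unadjusted p under 0.05.

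**Figure D5:**
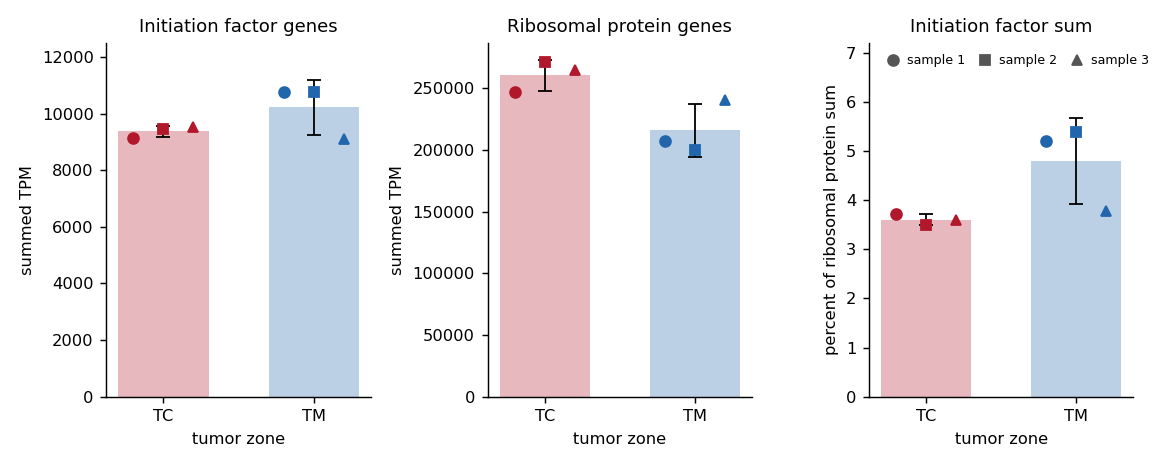
Summed TPM of the initiation factor genes, summed TPM of the cytosolic ribosomal protein genes, and the first as a percent of the second (y axes), for TC and TM (x axis). Bars are means, error bars SD over 3 samples and points the samples; the percent lies between 3.49 and 3.71 in TC and between 3.78 and 5.39 in TM.

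Genes that act on the initiation factors were described by the same counts. Among 14 regulators outside the family, 9 were lower and 5 higher in TC (4 and 10 after median-of-ratios rescaling), and 1 passed at an unadjusted p under 0.05 in each direction. LARP1, which binds the TOP motif, stood at 59.2, 46.0 and 43.2 TPM in TC and 86.3, 70.3 and 66.4 TPM in TM, without overlap, a difference of -0.58 ± 0.17 (limma unadjusted p = 0.00835, adjusted p = 0.148). MCTS1, which with DENR helps ribosomes to reinitiate, stood at 30.4, 40.9 and 41.6 TPM in TC and 29.1, 26.0 and 17.5 TPM in TM, a difference of 0.63 ± 0.22 in the opposite direction (limma unadjusted p = 0.0202, adjusted p = 0.210).

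The genes listed for the mTORC1 and MNK axis were mostly lower in TC, as were 67.0% of all tested genes. Of these 11 genes, 9 were lower with a list median of -0.34 (8 lower and -0.14 after median-of-ratios rescaling), and 6 did not overlap in the lower direction and 1 in the higher direction (18.9% and 3.28% of all tested genes). RPTOR, the substrate-binding subunit of mTORC1, stood at 11.2, 13.01 and 11.6 TPM in TC and 16.6, 16.7 and 23.2 TPM in TM (difference -0.60 ± 0.19, limma unadjusted p = 0.0137, adjusted p = 0.181). AKT1S1, an mTORC1 inhibitor, differed by -0.38, and RPS6, the exception that did not overlap in the higher direction, by 0.37. RPS6 is also among the 79 cytosolic ribosomal protein genes, of which 77 were higher in TC. All adjusted p-values of the list were 0.181 or more.

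Of the 10 genes around eIF2 phosphorylation (kinases, phosphatase partners and targets), 6 were lower and 4 higher in TC with a median of -0.14, and 3 and 7 after median-of-ratios rescaling with a median of 0.07. DDIT3, a stress-induced transcription factor downstream of ATF4, stood at 33.6, 36.4 and 33.7 TPM in TC and 21.4, 26.4 and 31.1 TPM in TM, without overlap (difference 0.40 ± 0.17, limma unadjusted p = 0.0467, adjusted p = 0.301). ATF4, whose mRNA is translated when eIF2 is limiting, differed by 0.21 and overlapped. Of the 13 tested elongation and release factors and hypusine enzymes, 6 were lower and 7 higher with a median of 0.04 (3 and 10 after median-of-ratios rescaling), and 0 passed at an unadjusted p under 0.05. DOHH, which completes hypusine on eIF5A, did not overlap in the lower direction, at 14.4 to 14.7 TPM in TC and 16.3 to 23.3 TPM in TM (difference -0.38 ± 0.18, limma adjusted p = 0.355). EEF1B2, a subunit of the exchange factor for elongation factor eEF1A, did not overlap in the higher direction, at 868 to 925 TPM in TC and 714 to 816 TPM in TM (difference 0.20 ± 0.12, limma adjusted p = 0.462).

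Skeletal muscle and fibroblast markers were high in TM samples 1 and 2, as given above, and low in TM sample 3. EIF3B, EIF4A1, EIF4E, EIF4EBP1, EIF5A and EIF5B were also lowest of TM in sample 3. That held for 33 of 48 members, while 10 were highest there, and the shares over all genes were not computed. The marker sums were higher in TM sample 2 than in TM sample 1. Of the genes just named, EIF4EBP1 and EIF5A were also higher in TM sample 2. EIF3B, EIF4A1, EIF4E and EIF5B were higher in TM sample 1, EIF3B and EIF4A1 by little. The part of host tissue in the members' differences was not tested.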

How the data were processed

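The authors trimmed reads with SeqPrep and Sickle, aligned them with HISAT2, assembled transcripts with StringTie and quantified genes with RSEM, with hg38 named in the submitters' processing notes. The annotation release, and any separation of mouse from human reads, are not given in the sources used here. The authors deposited 1 matrix of TPM values over 60930 features, of which 60671 are annotated genes and 259 are loci outside the annotation. Symbols came from a gene name table (60401 genes matched), and gene types and positions from GENCODE release 29 (GRCh38).

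TPM are not counts, so limma 3.58.1 (R 4.3.3) was run on log2(TPM + 1) with a mean-variance trend, two-sided, for the 13861 genes that reached 1 TPM in 3 or more samples, and p-values were adjusted over all of them. A difference is TC minus TM on that scale and understates the change of low genes. Ratios were compared by an exact permutation test. Nothing in the labels ties a TC sample to a TM sample. The paper took core and margin tissue from MDA-MB-231 tumors, with 3 mice per group, without saying which samples share a tumor. The main model was unpaired, and its p-values weigh the difference between zones against the spread between these samples. Start sites came from the RefSeq promoter table (44 of 52 members matched). Members are described with TPM in every sample if they had an unadjusted p under 0.05, were among the 5 highest in mean TPM or belonged to a fixed list of 17 anchors of the pathway; EIF2B4, EIF3CL and EIF3D were added after their values were seen. Members, lists and anchors were chosen with earlier results of these data known. Alternatives changed the pseudocount, filter, scaling, variance model, pairing and samples.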

Additional observations from a re-analysis of the deposited data

How the results depend on the processing

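No member was called at an adjusted p under 0.05 in limma under any of 15 other settings, or once the trend of each library over GC content and transcript length was removed, a setting chosen after seeing the data. The count of members lower in TC at an unadjusted p under 0.05 (5 as reported) was 0 with median-of-ratios rescaling (6.70% of all genes), 2 without the mean-variance trend (13.6%) and 1 with the GC and length trend removed (6.11%), where 1 member, EIF3G, was higher (5.67%), and it ran from 0 to 11 when each sample was left out in turn, with 0 without TM replicate 1 or TM replicate 2 and 11 without TM replicate 3 (9.73%, 11.7% and 16.8% of all genes). The members' median difference was 0.1133 with median-of-ratios rescaling and ran from -0.197 to -0.070 over the left-out samples. The count of members without overlap (6) was 3 with median-of-ratios rescaling, 11 without mitochondrially encoded genes, 3 with the GC and length trend removed and 19 without TM replicate 3. The share of all genes without overlap was not computed under these settings, so these counts show nothing particular to the members. Groups also separate more easily when a sample is left out. The cause of the changes between settings was not tested.

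EIF4G1, EIF4A3, EIF3B, EIF2S3, EIF4ENIF1, EIF4A1, EIF2B5 and EIF4EBP1 kept their sign under every one of these settings, but not their size. In that order their differences were -0.24, -0.09, -0.20, -0.16, -0.50, -0.05, -0.11 and -0.04 with median-of-ratios rescaling and -0.0868, -0.12, -0.13, -0.36, -0.50, -0.14, -0.0674 and -0.0251 with the GC and length trend removed. Small differences changed sign. With median-of-ratios rescaling they were 0.0196 for EIF5A, 0.0162 for EIF4A2, 0.17 for EIF1AX, 0.19 for EIF4E, 0.0388 for EIF4B, 0.15 for EIF5 and 0.13 for EIF6. With quantile normalization they were -0.0117 for EIF3C, 0.14 for EIF1AX and 0.10 for EIF4E. Without mitochondrially encoded genes they were -0.0192 for EIF3C, -0.0472 for EIF2S1 and -0.0078 for EIF5A2. With the GC and length trend removed they were 0.0356 for EIF5A, -0.0724 for EIF2S1, -0.0641 for EIF3E and 0.16 for EIF6. Over the left-out samples the differences ran from -0.51 to 0.0051 for EIF5A, -1e-04 to 0.32 for EIF1, -0.21 to 0.16 for EIF3C, -0.38 to 0.0725 for EIF4A2, -0.16 to 0.0932 for EIF1AX, -0.30 to 0.24 for EIF2S1, -0.44 to 0.63 for EIF3A, -0.062 to 0.31 for EIF3E, -0.40 to 0.20 for EIF4E, -0.34 to 0.0679 for EIF4B, -0.24 to 0.0709 for EIF5, -0.48 to 0.66 for EIF5B, -0.29 to 0.29 for EIF5A2 and -0.17 to 0.0186 for EIF6.

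With the sample number as a replicate block the count at an unadjusted p under 0.05 was 3 (12.1% of all genes), and 0 members were called. Deviations of samples with the same number correlated at 0.21, -0.12 and -0.16, so no pairing by number was visible, and whether samples of a number share a mouse is not given. The 3 samples a group and unknown depth limit all of these values.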

Other observations

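Pseudogenes of the family were left out of the members by rule, and their values are given here. Of 81 such genes in the matrix, 42 were at 0 in all samples and 6 passed the filter used for the members. Together the 81 summed to 24.4, 23.0 and 37.8 TPM in TC samples 1 to 3 and 47.2, 93.9 and 22.7 TPM in TM samples 1 to 3, so the groups overlapped through TM sample 3. TM sample 2 was the highest of all samples in 5 of the 6. EIF3FP3, a copy related to EIF3F, was the most abundant, at 10.3, 12.0 and 20.3 TPM in TC and 21.6, 50.03 and 4.34 TPM in TM. EIF4A1P10, a copy related to EIF4A1, stood at 3.21, 2.92 and 6.51 TPM in TC and 8.85, 16.9 and 3.46 TPM in TM. Reads of a pseudogene and of its parent gene can be split between them by the quantification.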
